A study of Mus musculus with 2 samples.

Results

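Homeostatic marker-high retinal microglia were described in single-cell RNA sequencing of leukocytes sorted from the mouse retina. A cell was a member if it was a microglial cell with a high summed count of P2ry12, Tmem119, Selplg and Gpr34, few counts of the chemokines Ccl2, Ccl3 and Ccl4, and no count of the interferon-induced genes Ifit3 and Isg15. By this rule 389 of 4456 kept cells were members, 155 in the library labelled Igfbpl1 knockout (KO) and 234 in the library labelled wildtype (WT). The tissue was retina of mice of the C57BL/6 strain, aged 8 to 10 months. The design text names 10 knockout and 10 sex-matched wildtype mice. Knockout mice carry Igfbpl1-/- and the wildtype mice are called B6. All mice were perfused, their retinas were digested with enzymes for 1 hour at 37 °C, and cells stained for CD45 were sorted and loaded on the 10x 3′ kit. The title of the knockout library spells its genotype Igfbpl-/1. Each group is 1 library, and its cells are not tied to single mice in the tables used here. Every difference below is therefore between 2 libraries, carries no test, and has 95% intervals that cover counting error only.

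Microglia are the resident macrophages of the retina and brain. Undisturbed microglia extend branched processes and carry a set of surface receptors and secreted proteins called the homeostatic signature, which depends on transforming growth factor beta and on the transcription factor Sall1. On injury, infection or degeneration this signature is reduced, while cytokines, interferon-induced genes or genes of lipid and lysosome handling are raised. P2ry12 encodes a receptor for extracellular nucleotides that steers the processes, Tmem119 a transmembrane protein used to tell microglia from other macrophages, Selplg the selectin ligand PSGL-1, and Gpr34 a receptor for lysophosphatidylserine.

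Igfbpl1, the gene named by the labels, went against them. Its product is a secreted relative of the proteins that bind insulin-like growth factors, and it lies at chr4:45809468-45826923 on the minus strand of GRCm38. The library labelled KO held 29 counts in all its barcodes, and the library labelled WT held 2. Among members, 7 counts lay in 6 of 155 cells of the library labelled KO (3.87%, exact Clopper-Pearson interval 1.43 to 8.23). No count lay in the 234 members of the library labelled WT, which allows a share of up to 1.28% (3 counts of the total; the exact interval reaches 1.56%). At that floor the ratio was at least 3.07-fold higher in the library labelled KO. The deleted part of the gene is not given in the sources used here, and a 3′ count from outside it would check nothing. The libraries are called by their labels throughout.

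The deposited tables hold 1785 barcodes and 7945713 UMIs (unique molecular identifiers, counted molecules) in the library labelled KO, against 2735 barcodes and 11020717 UMIs in the library labelled WT. Filters left 1761 and 2695 cells, of which 1533 and 2415 held counts of at least 3 of 7 gate genes and were taken as microglia. The libraries shared 1 barcode, and no member carried it. Doublets were not removed.

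Members were 10.1% of microglia in the library labelled KO (155 of 1533, interval 8.65 to 11.7) and 9.69% in the library labelled WT (234 of 2415, interval 8.54 to 10.9). The intervals overlapped. The top 25% of the 4-gene sum, taken over both libraries, held 401 microglia (26.2%) of the library labelled KO and 586 (24.3%) of the library labelled WT. The chemokine condition left out 189 and 317 of them. The interferon condition left out a further 57 of 212 and 35 of 269. The cut on the 4-gene sum was 88.8 counts per 10000 UMIs. The nearest members had 88.85, 88.86 and 88.97, and the nearest microglia outside had 88.76, 88.75 and 88.73. The chemokine cut was 17.0 counts per 10000 UMIs. Within 10% of the cut on the 4-gene sum lay 254 microglia of the library labelled KO and 412 of the library labelled WT, so the cut falls inside a continuous range.

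**Figure D1:**
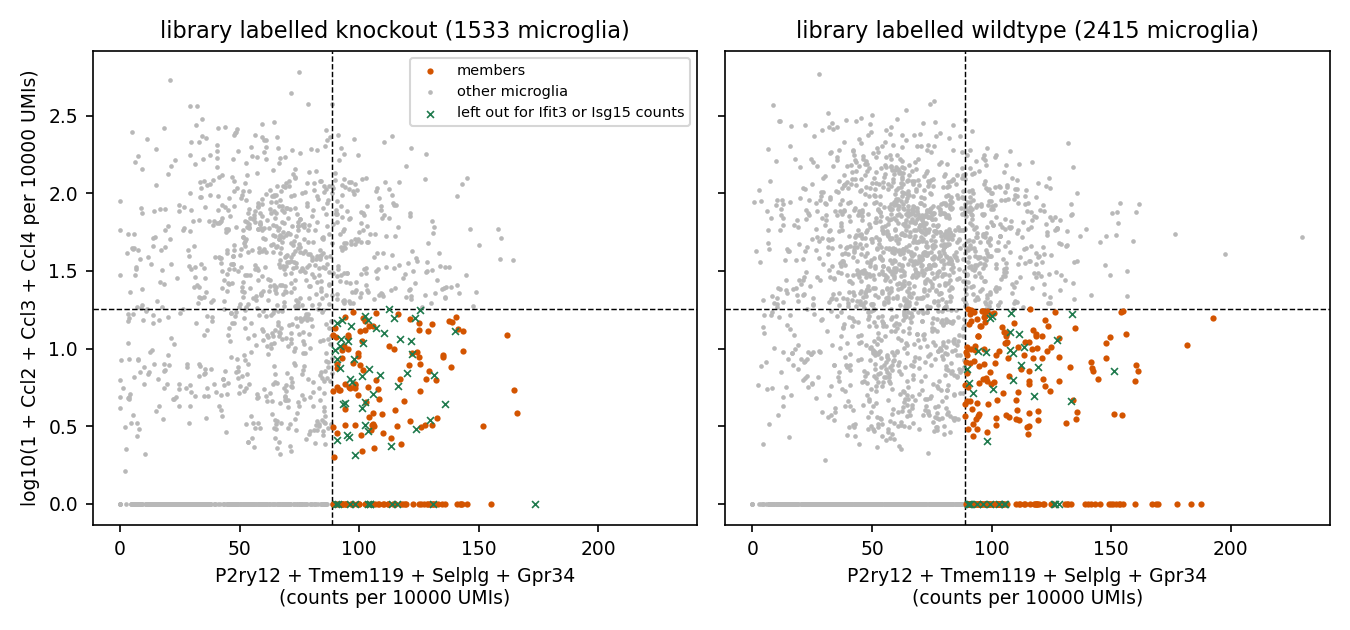
Each point is 1 microglial cell of the library labelled knockout (left) or wildtype (right). The x axis gives the summed counts of the 4 markers per 10000 UMIs and the y axis log10 of 1 plus the summed chemokine counts per 10000 UMIs, with the cuts at 88.8 and 17.0 as dashed lines. Members (155 and 234, orange) fill the lower right corner together with cells left out for Ifit3 or Isg15 counts (57 and 35, green crosses), with no gap at the cuts.

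Depth touched the choice of cells. The median member had 4291 UMIs in the library labelled KO and 3684 in the library labelled WT, against 4423.5 and 4074 in other microglia. Above 6000 UMIs, 5.15% and 3.26% of microglia were members, against 12.9% and 8.94% at 4000 to 6000 UMIs and 11.3% and 13.4% at 2000 to 4000 UMIs, and 8.56% and 9.57% at 500 to 2000 UMIs. When every cell was first thinned to 1000 UMIs and the rule applied again, 60.0% and 60.3% of the members were chosen again. Mitochondrial counts had a median of 0.965% and 0.977% in members, against 1.39% and 1.19% in other microglia, and ribosomal protein counts 10.0% and 9.53%, against 12.1% and 11.8%. At 1000 UMIs per cell the median number of genes was 640 and 636 in members, against 616 and 627 in other microglia.

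The 4 markers are given first, as a description, since they chose the cells. P2ry12 (chr3:59216272-59262871, minus strand) stood at 2696 CPM (counts per 1000000 UMIs summed over the cells) in members of the library labelled KO and 1416.5 CPM in its other microglia, and at 2714 CPM in members of the library labelled WT and 1545 CPM in its other microglia. Tmem119 (chr5:113793729-113800516, minus strand) stood at 2049 CPM in members and 1127 CPM in other microglia of the library labelled KO, and at 2011 CPM and 1133 CPM in the library labelled WT. Selplg (chr5:113818536-113832644, minus strand) is its neighbour on chromosome 5, with a gap of 18019 bases between the genes. Selplg contributed the most of the 4 genes, with 3636 CPM in members and 2027 CPM in other microglia of the library labelled KO, and 3556 CPM and 2007 CPM in the library labelled WT. Gpr34 (chrX:13632089-13640858, plus strand) stood at 2621 CPM in members and 1587 CPM in other microglia of the library labelled KO, and at 2927 CPM and 1593 CPM in the library labelled WT. Of the summed counts of the 4 genes in members, P2ry12 made 24.5% and 24.2%, Tmem119 18.6% and 17.9%, Selplg 33.0% and 31.7%, and Gpr34 23.8% and 26.1% in the libraries labelled KO and WT.

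All 4 markers were counted together in 150 of 155 members (96.8%) of the library labelled KO and 225 of 234 (96.2%) of the library labelled WT, against 75.7% and 80.7% of other microglia. Selplg held the highest count of the 4 in 79 members of the library labelled KO and 94 of the library labelled WT, Gpr34 in 27 and 70, P2ry12 in 31 and 37, and Tmem119 in 8 and 12, with ties in 10 and 21. Single members still differed widely. P2ry12 ran from 13.8 to 40.8 counts per 10000 UMIs between the limits of the lowest and the highest 10% of members in the library labelled KO, with a median of 27.2, and from 15.2 to 43.4 in the library labelled WT, with a median of 26.1.

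The rule and these ratios read the same counts. To part them, each cell's UMIs were divided at random into 2 equal sets, cells were chosen on 1 set, and the markers were read from the other. The ratio of members over other microglia was then 1.67 for P2ry12, 1.68 for Tmem119, 1.55 for Selplg and 1.56 for Gpr34 in the library labelled KO, and 1.55, 1.61, 1.61 and 1.56 in the library labelled WT. With choice and reading on the same counts, the P2ry12 ratio was 1.90 and 1.76. Read from the other set, Ccl4 in members was 0.115 and 0.123 of its level in other microglia, Ccl3 0.211 and 0.212, Isg15 0.212 and 0.145, and Ifit3 0.266 and 0.0514 (8 and 3 counts in members). A member with no Ifit3 or Isg15 count is thus not shown to lack these transcripts.

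The remaining gate genes went in part with the 4. Cx3cr1, the receptor for the neuronal chemokine fractalkine, stood at 4074 CPM in members and 2927 CPM in other microglia of the library labelled KO, and at 3288 CPM and 2673 CPM in the library labelled WT. Olfml3, which encodes a secreted matrix protein, had a ratio of 1.37 (interval 1.29 to 1.46) and 1.44 (interval 1.37 to 1.52), and Siglech, a sialic acid binding lectin, 1.196 and 1.13. Fcrls, an Fc receptor-like gene, did not go one way, with 177 CPM in members and 199.6 CPM in other microglia of the library labelled KO, against 299.7 CPM and 243 CPM in the library labelled WT.

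Homeostatic genes that the rule did not use were slightly higher in members. All 30 genes of this list were above 1 in both libraries when members were set over other microglia, and the 95% counting interval was above 1 in both for 25. The median log2 ratio of the list was 0.36 in the library labelled KO and 0.29 in the library labelled WT, beside 0.13 and 0.07 over 6187 genes at 20 CPM or more. Of those 6187 genes, 2715 were above 1 in both and 1258 below 1 in both. Scaling by the median of ratios instead of total counts lowered all these ratios by 0.11 and 0.07 on the log2 scale, and scaling without ribosomal protein and mitochondrial counts by 0.06 and 0.05. Under each of these scalings, 28 of the 30 genes were above 1 in both libraries, with Crybb1 and Rgs10 the exceptions. The differences were small, and the only gene of the list at least 1.5-fold higher in both libraries was Upk1b.

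Cst3, the secreted protease inhibitor cystatin C and the most abundant gene of the list, had ratios of 1.18 and 1.23. Csf1r, the receptor for the growth factors that keep microglia alive, had 1.21 and 1.12. Tgfbr1, a receptor chain for transforming growth factor beta, was among the more raised, at 969 CPM in members and 656 CPM in other microglia of the library labelled KO, and 989 CPM and 708 CPM in the library labelled WT (ratios 1.48, interval 1.36 to 1.61, and 1.40, interval 1.30 to 1.501). The nucleotide receptor P2ry13 had ratios of 1.44 and 1.43, the ectonucleotidase Entpd1 1.43 and 1.43, and the fructose transporter Slc2a5 1.70 and 1.43. Upk1b, a tetraspanin, stood at 80.8 CPM in members and 27.95 CPM in other microglia of the library labelled KO, and 50.7 CPM and 30.7 CPM in the library labelled WT (ratios 2.89, interval 2.08 to 3.95, and 1.65, interval 1.17 to 2.28). Members of the list named here beyond Upk1b, Cst3 and Crybb1 were chosen after their values had been seen.

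**Figure D2:**
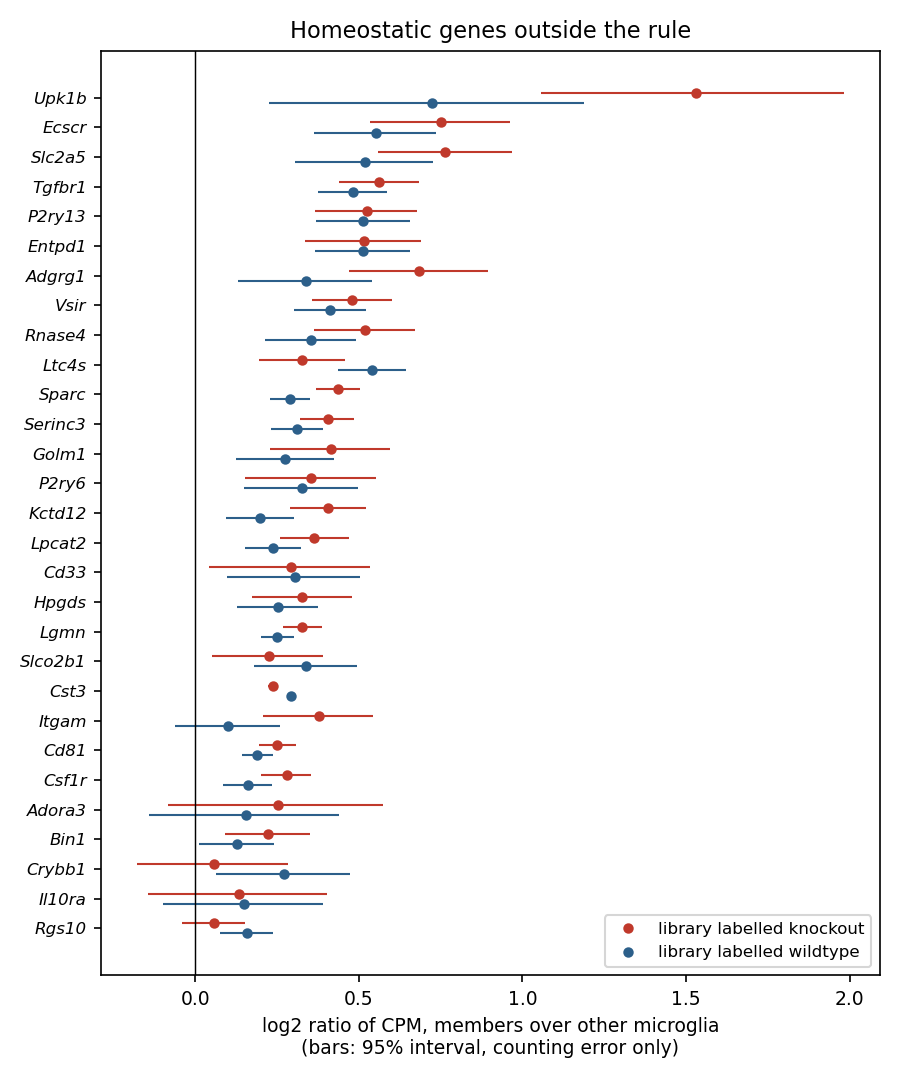
The log2 ratio of CPM in members over other microglia is plotted for 29 of the 30 homeostatic genes outside the rule, with 95% intervals that cover counting error only. Points of the library labelled knockout (red) and wildtype (blue) all lie above 0, with medians of 0.36 and 0.29 over the 30 genes, and Upk1b lies highest.

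Set over all other microglia, lineage transcription factors went with these genes. Of 15 measured at 20 CPM or more, 13 were above 1 in both libraries and none below 1 in both, with a median log2 ratio of 0.29 in the library labelled KO and 0.20 in the library labelled WT. With the median of ratios as scale, 12 were above 1 in both. Sall1, which holds the microglial identity in mice, stood at 326 CPM in members and 239.6 CPM in other microglia of the library labelled KO, and 279.6 CPM and 206 CPM in the library labelled WT, a ratio of 1.36 in each. In the transforming growth factor beta list, 10 of 13 genes were above 1 in both libraries (8 with either other scaling), with medians of 0.31 and 0.17. In the purinergic list the count was 6 of 7 (5 with the median of ratios), with medians of 0.25 and 0.16. In the chemokine receptor and motility list it was 10 of 13 (8 with the median of ratios), with medians of 0.31 and 0.13. No gene of these 4 lists reached 1.5-fold in both libraries.

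Across all genes, members were close to other microglia. Of 3167 genes at 50 CPM or more in each library, and leaving out the genes of the rule, 11 stood 1.5-fold or more above other microglia in both libraries (0.347%), and 36 stood 1.5-fold or more below (1.14%). Genes past this limit at 50 CPM are named as called higher or lower. The rule used the same cells, so nothing is read from these shares. The 30 homeostatic genes gave 1 of the 11.

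The genes highest in members were low in level. Besides Upk1b they included Csmd3, a large membrane protein gene with complement control repeats, at 225 CPM in members and 117 CPM in other microglia of the library labelled KO and 230.1 CPM and 134 CPM in the library labelled WT (ratios 1.92 and 1.72). Tmem63a, a mechanically gated channel gene, had ratios of 1.51 and 2.03, and the membrane protein gene Clstn1 1.77 and 1.91. Cnot8, a deadenylase subunit, had 1.55 and 1.54, the lysosomal transporter Slc46a3 1.60 and 1.74, and Zfp397, Zmym5 and Fam110a 1.51 to 1.80 in the library labelled KO and 1.54 to 1.78 in the library labelled WT. In the library labelled KO the ratio of Zmym5 turned to -0.25 on the log2 scale when the rule followed thinning. Next in rank, Setd2, Sipa1l1 and Mgat5 were 1.48-fold to 1.54-fold higher in members and missed 1.5-fold in 1 or both libraries.

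Many of the genes low in members were high at the other end of the marker scale. Apoe, the main lipid carrier of the nervous system, stood at 185 CPM in members and 11670 CPM in other microglia of the library labelled KO, and at 140.4 CPM and 6043 CPM in the library labelled WT. In the lowest 25% of the 4-gene sum it stood at 37466 CPM and 22600 CPM, and in the next 25% at 1902 CPM and 879.9 CPM. Without the lowest 25%, the log2 ratio of members over other microglia for Apoe was -2.40 and -1.73 instead of -5.98 and -5.43, and 13 genes instead of 36 were at least 1.5-fold lower in both libraries. The share of members with an Apoe count was at or below that of cells that should lack the gene, of which only 16 and 17 were compared. Whether the Apoe counts in members are background was not tested, and no expression of Apoe in members is read from these shares. After thinning to 1000 UMIs, 15.4% and 6.58% of members held an Apoe count (43.2% and 21.4% unthinned), against 37.5% (6 of 16) and 11.8% (2 of 17) of lymphocyte-marked cells. The median depths of those lymphocyte-marked cells were 3069 and 3253 UMIs.

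Antigen presentation genes of MHC class II followed. Of 6 compared, 4 were called lower in both libraries, beside 1.14% of all genes. The list's median log2 ratio of -2.61 in the library labelled WT turned to 0.05 without the lowest 25% of microglia and to 0.12 without cells holding a border macrophage marker. H2-Eb1 had 1.55 CPM in members and 196 CPM in other microglia of the library labelled KO, and 1.18 CPM and 145 CPM in the library labelled WT. H2-Aa had 4.66 CPM in members and 197 CPM in other microglia of the library labelled KO. It had no count in members of the library labelled WT against 143 CPM in its other microglia, a ratio of at most 0.0248 at the floor of 3 counts. Cd74, the invariant chain, had ratios of 0.0637 and 0.0885. The accessory gene H2-DMb1, at ratios of 1.33 and 1.10, did not go with them. Ccl5 had ratios of 0.0248 and 0.0364, the oxidase subunit Cybb 0.0446 and 0.109, and Wfdc17 0.0978 and 0.120.

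Markers of border macrophages, the macrophages of vessels and membranes around the tissue, moved with these genes. In members, 6 of the 7 markers were at 0 in each library (Mrc1, Pf4, Ms4a7, Cd163, Lyve1 and F13a1), and the 7 together made 1.55 CPM and 1.18 CPM, against 217 CPM and 152 CPM in other microglia. A marker was counted in 1 member of each library and in 123 and 115 microglia in all. Leaving out all cells with such a marker, 7 genes instead of 11 were called higher in both libraries and 23 instead of 36 lower, and the log2 ratio of Apoe was -2.95 and -2.91. The part of these cells in the remaining differences was not tested. T cell markers summed to 1.55 CPM and 0 CPM in members, against 41.5 CPM and 12.02 CPM in other microglia, and 5 and 6 of the 6 markers were at 0. In the list for Müller glia and astrocytes, members reached 687 CPM and 675 CPM, against 545 CPM and 629 CPM in other microglia, with Glul giving 372 and 486 of the counts and Aqp4 and Gfap at 0.

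Disease-associated, inflammatory and stress genes were mostly lower in members. In the disease-associated microglia list 17 of 24 genes were below 1 in both libraries, with medians of -0.42 and -0.22 (the second was 0.01 without the lowest 25%). Over all 6187 genes at 20 CPM or more, 1258 were below 1 in both. Of 20 genes of the list compared at 50 CPM, Apoe, Cst7 and Lyz2 were called lower, beside 1.14% of all genes. Spp1, the secreted phosphoprotein osteopontin and chosen here after its values had been seen, stood at 6.21 CPM in members and 145 CPM in other microglia of the library labelled KO and 3.54 CPM and 9.25 CPM in the library labelled WT. The tetraspanin gene Cd9, of the same list, was slightly higher, with ratios of 1.19 and 1.11.
Of 29 inflammatory cytokine and NF-kB target genes at 20 CPM or more, 22 were below 1 in both libraries, with medians of -0.55 and -0.41, and 5 of 23 compared at 50 CPM were called lower in both, beside 1.14% of all genes. Those were the cytokine gene Il1b (ratios 0.392 and 0.430), the chemokine genes Cxcl10, Ccl12 and Ccl5, and Nfkbia, the inhibitor of NF-kB. The rule favours this direction through Ccl2, Ccl3 and Ccl4, and nothing is read from the count of inflammatory genes. All 12 heat shock chaperone genes were below 1 in both, under each scaling, with medians of -0.46 and -0.40 and Dnajb1 the lowest at ratios of 0.445 and 0.513. Immediate early genes, which enzymatic digestion is known to induce, were uneven, with 11 of 19 below 1 in both, Atf3 at ratios of 0.325 and 0.464, and Jun at 0.996 and 1.06. The phagocytic receptor list (12 of 18 above 1 in both), the complement list (5 of 7) and the lysosomal list (13 of 22) had medians between 0.03 and 0.22, and no gene of these lists reached 1.5-fold in both libraries. With the median of ratios as scale, those counts were 9, 2 and 7. C1qa, the complement component made by microglia, had ratios of 1.05 and 1.04.

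Microglia of both libraries were also ranked by the 4-gene sum and parted into 4 bins of 25%. Homeostatic genes outside the rule summed to 56240 CPM in the lowest 25% and 96102 CPM in the highest in the library labelled KO, and to 63964 CPM and 97164 CPM in the library labelled WT, with most of the difference between the lowest bin and the next. MHC class II genes fell off between the same bins, with 4118 CPM and 819.9 CPM in the library labelled KO and 4066 CPM and 628 CPM in the library labelled WT. The disease-associated list stood at 85622 CPM in the lowest 25% and 33380 CPM in the highest in the library labelled KO, and at 63059 CPM and 33163 CPM in the library labelled WT. Depth moved with the bins as well, with a median of 3046.5 and 3583 UMIs in the lowest 25%. RNA quality differed there too. Median ribosomal protein counts were 17.9% and 16.3% in the lowest 25%, against 10.0% and 9.53% in members. Mitochondrial counts were 2.18% and 1.70%, against 0.965% and 0.977%. Malat1 had a median of 15.4 and 114 counts per 10000 UMIs, against 250 and 252 in members. The part of depth and RNA quality was not tested.

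**Figure D3:**
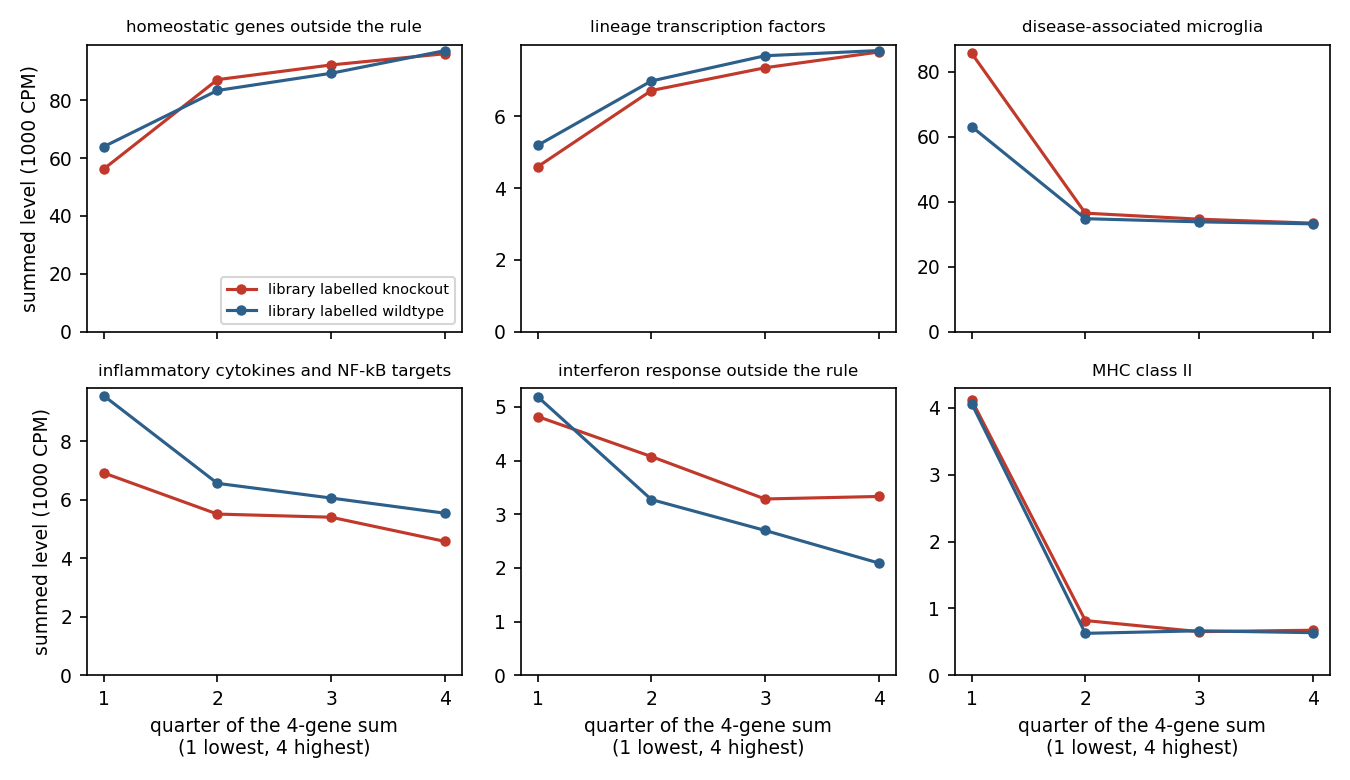
The summed level of 6 gene lists, in 1000 CPM on axes that start at 0, is plotted against the 4 bins of the 4-gene sum, from low to high, in the library labelled knockout (red) and wildtype (blue). Homeostatic genes rise to 96102 and 97164 CPM in the highest bin, and MHC class II genes are high in the lowest 25% alone among the 4. Interferon genes outside the rule stand at 3331 CPM and 2091 CPM in the highest bin.

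Members were also set against the 246 and 352 microglia with an equally high 4-gene sum that failed the chemokine or interferon condition. Homeostatic genes outside the rule had a median log2 ratio of 0.04 and 0.05 between these cell groups, beside 0.02 and 0.01 over all genes. Interferon genes outside the rule had -0.77 and -0.55, and inflammatory genes -0.23 and -0.27. The chemokine and interferon conditions parted these cell groups and favour both directions, so nothing is read from the medians of these lists. The medians of the homeostatic list against the lowest 25%, which also differed in depth and RNA quality, were 0.98 and 0.70. Against the marker-high microglia outside the members, lineage transcription factors had medians of 0.04 and 0.02. The transforming growth factor beta list had 0.0003 and -0.003, the purinergic list -0.08 and 0.08, and the chemokine receptor and motility list 0.05 and 0.02. Members were thus close to them in these lists.

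Apoe stood at 185 CPM in members and 412 CPM in those marker-high microglia of the library labelled KO, and at 140.4 CPM and 107 CPM in the library labelled WT. Il1b stood at 26.4 CPM in members and 30.9 CPM in them in the library labelled KO, and at 30.7 CPM and 29.5 CPM in the library labelled WT.

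Members were not alike inside either library. No count of Ccl2, Ccl3 or Ccl4 was found in 55 members labelled KO and 97 members labelled WT, and 100 and 137 members held some below the cut. Interferon genes outside the rule summed to 2831 CPM and 1535 CPM in members without a chemokine count and to 2278 CPM and 1555 CPM in members with one. Among members below the pooled median depth of 3847 UMIs the same list summed to 2965 CPM and 1703 CPM, and among members at or above it to 2282 CPM and 1433 CPM. In each of these 4 sets the library labelled KO was the higher. The sets overlap, being splits of the same members, and are not separate results. Homeostatic genes outside the rule summed to 95782 CPM and 96587 CPM in the shallower members and 98694 CPM and 102779 CPM in the deeper ones.

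The comparison of the libraries asks whether members labelled KO differ from members labelled WT. They were close in the homeostatic program. P2ry12 had a ratio of the library labelled KO over the library labelled WT of 0.993 (interval 0.933 to 1.06), Tmem119 1.02 (interval 0.948 to 1.10), Selplg 1.02 (interval 0.968 to 1.08) and Gpr34 0.895 (interval 0.841 to 0.953), with the rule holding their sum high in both. Of the 30 homeostatic genes outside the rule, 18 were above 1 and 12 below, with a median log2 ratio of 0.07 beside 0.02 over 6777 genes. Cx3cr1 stood at 4074 CPM and 3288 CPM (ratio 1.24, interval 1.17 to 1.31) and Csf1r at 2427 CPM and 1935 CPM (ratio 1.25, interval 1.17 to 1.34). Only Upk1b of the 30 was 1.5-fold apart, at 80.8 CPM and 50.7 CPM (52 and 43 counts), and its log2 ratio of 0.67 turned to -0.27 when the rule followed thinning.

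Over all genes, 59.6% of 3554 at 50 CPM or more in either library differed by less than 1.2-fold between members of the 2 libraries. The library labelled KO stood 1.5-fold or more above the library labelled WT for 183 genes (5.15%) and below it for 145 (4.08%). The counting interval stayed on its side of 1 for 130 and 110 of them. Ribosomal protein genes made 7 of the 183 and none of the 145; they share reads with pseudogenes and are uncertain. The sums are shallow, at 643645 UMIs in members labelled KO and 847528 UMIs in members labelled WT. The median of the larger summed count was 45 for the higher genes and 62 for the lower ones. In other microglia, with 6439116 and 9401628 UMIs, the same limits called 23 of 3194 genes higher and 15 lower. Of these, 11 and 5 were also called the same way in members, which is 6.01% of the members' higher calls and 47.8% of the other microglia's, and 3.45% and 33.3% of the lower ones.

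Adamts1, a secreted protease of the matrix, had the highest ratio in members among the genes that reached 50 CPM in either library. It had 154 counts (239 CPM) in members labelled KO and 66 counts (77.9 CPM) in members labelled WT, a ratio of 3.07 (interval 2.29 to 4.16), while other microglia stood at 185 CPM and 184 CPM. Its log2 ratio was 1.62 but 0.20 when the rule was applied after thinning and 0.50 in the top 10% of the 4-gene sum. After thinning, 12.1% and 4.82% of members held an Adamts1 count (21.3% and 9.83% unthinned), against 11.3% and 2.78% of retina-marked cells (median depths 5373 and 4177 UMIs). Hmgn3, which encodes a nucleosome binding protein, and Safb, a scaffold attachment factor gene, had ratios of 2.56 and 2.26, and Fbxl14, Cacna1s, Zbtb8b, Fhod1, Uba7 and Tcim lay between 2.27 and 2.71. Except for Tcim (76 counts) and Safb (60 counts), these genes rested on 33 to 42 counts in members labelled KO, and Zbtb8b turned to a log2 ratio of -0.59 after thinning. The genes at 33 to 42 counts reached 50 CPM in the library labelled KO alone. A limit met in either library favours such ratios, so nothing is read from their rank.

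Cxcl10, a chemokine that interferon induces and that attracts T cells, had the lowest ratio at the same limit. It had 14 counts (21.8 CPM) in members labelled KO and 89 counts (105 CPM) in members labelled WT, a ratio of 0.207 (interval 0.109 to 0.366). A single cell held 24 of the 89 counts, and the log2 ratio was -2.27 with that cell and -2.82 without the cell with the most counts in each library. When cells were chosen on 1 random set of the UMIs and read from the other, it was -0.18, and with the chemokine and interferon conditions dropped it was -1.01. In other microglia Cxcl10 stood at 86.3 CPM and 302 CPM. Nsun6, a tRNA methyltransferase gene, had 41 counts (63.7 CPM) and 165 counts (195 CPM), a ratio of 0.327 (interval 0.227 to 0.463), with 0.673 in other microglia. Rfc1, Chmp6, Actr8, Atp2a2, Brms1, Lonp2, Smndc1 and Ercc5 had ratios of 0.345 to 0.473, from 13 to 35 counts in members labelled KO. Cxcl10 met the limit on level in the library labelled WT alone, and a limit met in either library also favours low ratios.

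**Figure D4:**
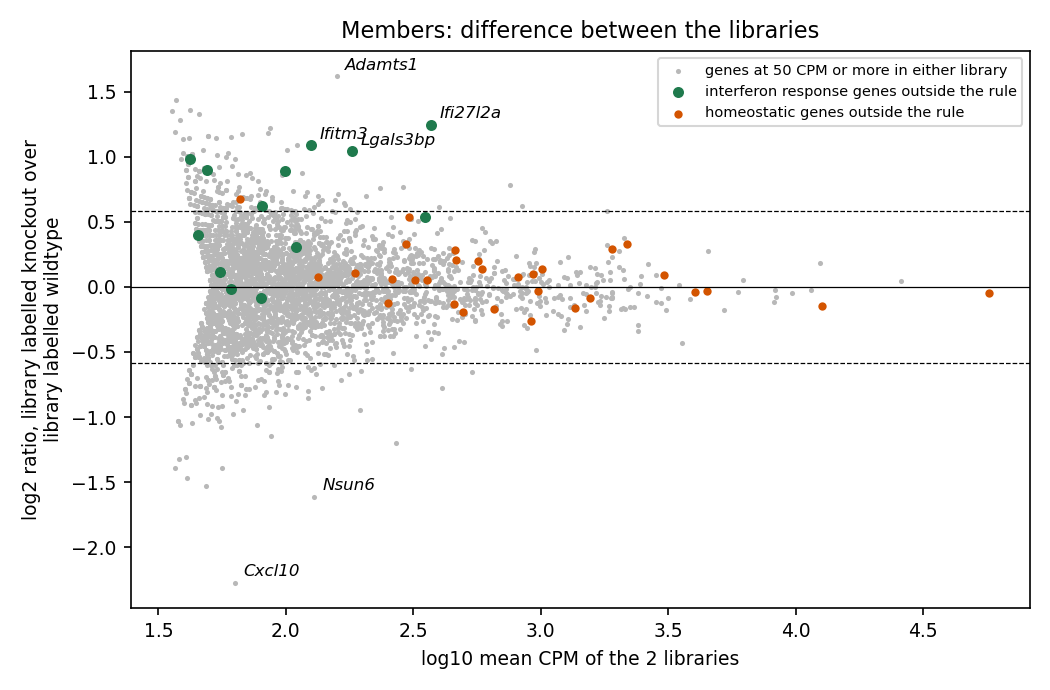
Each point is a gene with at least 50 CPM in members of either library, with log10 of its mean CPM on the x axis and the log2 ratio of the knockout-labelled over the wildtype-labelled library on the y axis. Dashed lines mark 1.5-fold. The scatter widens at low level, homeostatic genes (orange) lie near 0, and 7 of 13 interferon genes (green) lie above the upper line, with none below the lower line.

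Several interferon-induced genes other than Ifit3 and Isg15 were higher in members labelled KO than in members labelled WT. Such genes are transcribed when interferons bind their receptors on a cell. Of the 35 genes of the list, 13 reached 50 CPM in either library. Members labelled KO had 1.5-fold or more of 7 of these, each with an interval above 1, and none was called lower, beside 5.15% and 4.08% of all genes. Not all of the 7 reached 50 CPM in both libraries, and Rtp4 passed through the library labelled KO alone. The median log2 ratio of the list was 0.54 over 23 genes at 20 CPM or more, beside 0.02 over all genes, and lay between 0.37 and 0.97 under the alternatives tried. In other microglia, 2 of 21 were higher and 1 lower. The median there was 0.05, over 29 genes at 20 CPM or more in members or other microglia of each library. The marker-high microglia outside the members were also higher in the library labelled KO for each of the 7. Among them Ifi27l2a stood at 694 CPM and 349 CPM, Ifitm3 at 291 CPM and 166 CPM, and Slfn2 at 144 CPM and 125 CPM. The direction was thus not particular to members. Those cells include the 57 and 35 left out for Ifit3 or Isg15 counts. No test of the difference between members and other microglia was possible with 1 library per group.

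Ifi27l2a, the most abundant of them and an interferon-induced membrane protein gene (chr12:103442167-103443680, minus strand), had 335 counts (520.5 CPM) in members labelled KO and 186 counts (219 CPM) in members labelled WT, a ratio of 2.37 (interval 1.98 to 2.85). Other microglia stood at 923.9 CPM and 599 CPM, a ratio of 1.54. After thinning to 1000 UMIs, 26.2% (interval 19.3 to 34.0) and 17.1% (interval 12.5 to 22.6) of members held a count (59.4% and 35.0% unthinned). The shares were 5.66% and 0% in retina-marked cells (0 of 72, with an exact interval up to 4.99%) and 62.5% and 29.4% in lymphocyte-marked cells. The thinned intervals of the members overlapped, and no difference is read from these shares either. Ifi27l2a belongs to a family with close copies, so that its counts are uncertain.

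Ifitm3, which blocks the entry of viruses (chr7:141009586-141010770, minus strand), had 110 counts (171 CPM) and 68 counts (80.2 CPM), a ratio of 2.13 (interval 1.56 to 2.93), while other microglia had a ratio of 1.16. Its share of members with a count after thinning, 13.4% and 8.33% (32.9% and 17.9% unthinned), was below that of retina-marked cells, 22.6% and 11.1%, and no difference is read from these shares. Lgals3bp, a secreted glycoprotein gene, had 158 and 101 counts, a ratio of 2.06 (interval 1.59 to 2.67), beside 1.53 in other microglia. Slfn2 had a ratio of 1.85 (interval 1.31 to 2.63), Rtp4 1.98 (interval 1.15 to 3.46) and Sp100 1.54 (interval 1.05 to 2.25), the last being a gene with near-identical copies in the mouse, which leaves its counts uncertain. Slfn2, Rtp4, Sp100 and Lgals3bp were chosen after their values had been seen. In the top 10% of the 4-gene sum, the log2 ratio of Rtp4 was 0.20 and that of Sp100 0.29, instead of 0.98 and 0.62.

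The interferon condition removed cells unequally from the libraries, which is a description of the rule and not a second measure. Among microglia in the top 25% of the 4-gene sum and below the chemokine median, 57 of 212 in the library labelled KO held an Ifit3 or Isg15 count (26.9%, interval 21.0 to 33.4), against 35 of 269 in the library labelled WT (13.01%, interval 9.23 to 17.6). At 1000 UMIs per cell the shares were 14.1% (interval 9.64 to 19.6) and 3.80% (interval 1.84 to 6.88). Among all microglia the shares were 27.7% and 22.7%, and the thinned shares 11.3% (interval 9.77 to 13.03) and 10.2% (interval 9.05 to 11.5). Among all microglia in the top 25% the shares were 25.2% and 18.4%. Their thinned shares were 12.8% (interval 9.64 to 16.5) and 6.43% (interval 4.57 to 8.76). When cells with counts of Ifit1, Ifit2, Rsad2, Irf7, Oasl2 or Ifi204 were also left out of the members, a setting chosen after seeing the data, 112 and 177 members were left and the median log2 ratio of the interferon list was 0.59.

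Set against other microglia, interferon genes outside the rule were lower in members of both libraries, a direction that the rule favours through Ifit3 and Isg15. Below 1 in both were 28 of 29 genes, with medians of -0.66 in the library labelled KO and -1.02 in the library labelled WT, and 9 of 16 were called lower in both, beside 1.14% of all genes. Nothing is read from this count, and without the chemokine and interferon conditions the median in the library labelled KO was 0.02. Ifitm3 stood at 171 CPM in members and 400.1 CPM in other microglia of the library labelled KO, and at 80.2 CPM and 345 CPM in the library labelled WT. Irf7, a transcription factor of the interferon response, had ratios of 0.266 and 0.288.

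**Figure D5:**
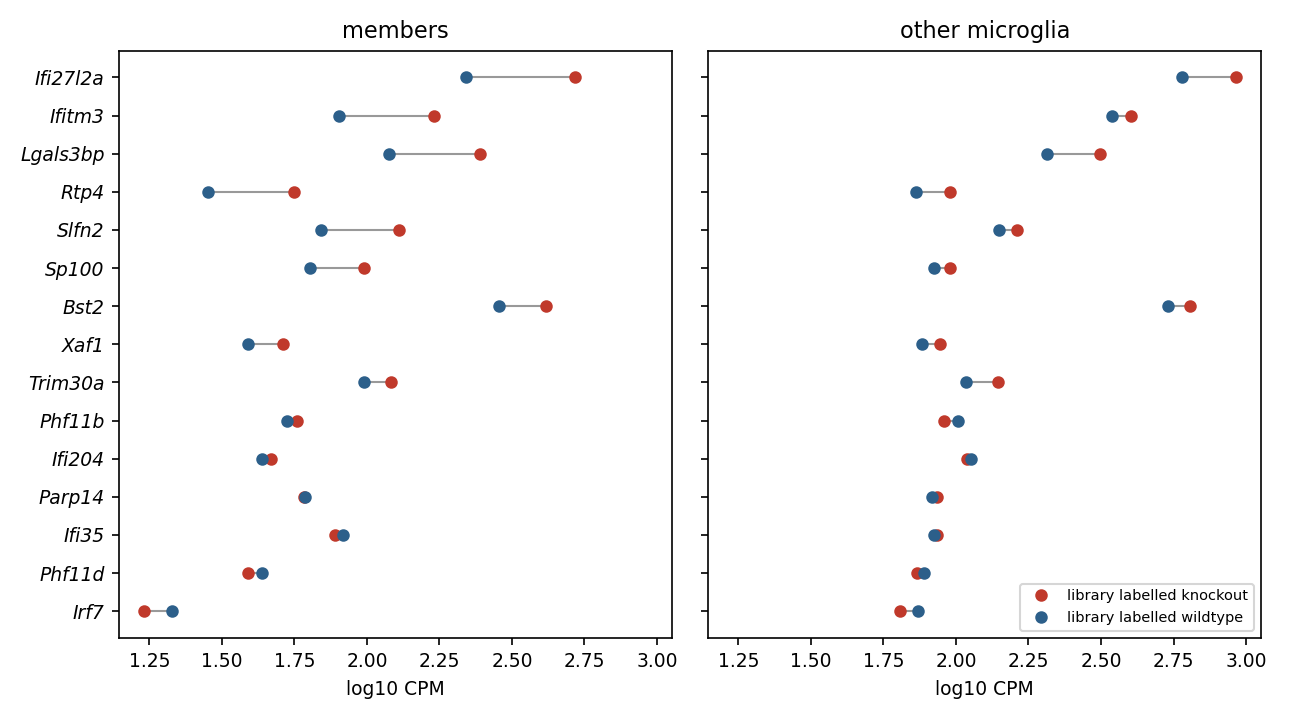
Levels of 15 interferon genes outside the rule are plotted as log10 CPM in members (left) and in other microglia (right), in the library labelled knockout (red) and wildtype (blue), joined by a line per gene. In members the red points lie to the right for the upper genes, from 520.5 CPM against 219 CPM for Ifi27l2a, and for the called genes drawn the distance between the points is smaller in other microglia.

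The promoters of genes that carried this comparison are given to show whether they hold the core of the interferon-stimulated response element, to which interferon-activated transcription factors bind. The window runs from 250 bases before to 30 bases after the transcription start in RefSeq annotation of GRCm38.p6, on the strand of the gene and in lower case, and capitals mark matches of GAAANNGAAA on either strand. Overlapping matches run together. P2ry12 is shown for the homeostatic markers, Isg15 and Ifit3 as the genes of the interferon condition, and Ifitm3 and Cxcl10 as interferon-induced genes that went opposite ways between the libraries. The windows are chr3:59262956-59263235 (minus) for P2ry12, chr4:156200789-156201068 (minus) for Isg15, chr19:34583279-34583558 (plus) for Ifit3, chr7:141010715-141010994 (minus) for Ifitm3 and chr5:92348860-92349139 (minus) for Cxcl10.
P2ry12: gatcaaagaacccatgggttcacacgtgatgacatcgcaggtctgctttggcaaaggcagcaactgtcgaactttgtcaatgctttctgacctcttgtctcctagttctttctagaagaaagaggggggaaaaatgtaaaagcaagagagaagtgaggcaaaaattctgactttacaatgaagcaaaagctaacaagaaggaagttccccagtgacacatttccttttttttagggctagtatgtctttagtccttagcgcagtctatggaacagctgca
Isg15: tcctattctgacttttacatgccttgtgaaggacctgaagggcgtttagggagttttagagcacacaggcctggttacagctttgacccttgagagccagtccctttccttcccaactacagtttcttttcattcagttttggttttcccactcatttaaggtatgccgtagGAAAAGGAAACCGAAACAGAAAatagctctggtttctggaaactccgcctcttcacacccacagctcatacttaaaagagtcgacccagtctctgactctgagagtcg
Ifit3: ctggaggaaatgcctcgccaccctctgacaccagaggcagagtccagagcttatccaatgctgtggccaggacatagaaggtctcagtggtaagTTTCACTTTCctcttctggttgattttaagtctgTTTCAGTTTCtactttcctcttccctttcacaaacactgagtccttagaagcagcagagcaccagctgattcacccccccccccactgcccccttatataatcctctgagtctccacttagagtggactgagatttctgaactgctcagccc
Ifitm3: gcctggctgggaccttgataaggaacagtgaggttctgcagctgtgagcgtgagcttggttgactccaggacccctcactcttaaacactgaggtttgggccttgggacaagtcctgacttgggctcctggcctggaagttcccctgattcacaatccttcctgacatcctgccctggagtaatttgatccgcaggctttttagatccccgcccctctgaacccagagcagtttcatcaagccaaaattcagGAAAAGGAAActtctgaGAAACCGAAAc
Cxcl10: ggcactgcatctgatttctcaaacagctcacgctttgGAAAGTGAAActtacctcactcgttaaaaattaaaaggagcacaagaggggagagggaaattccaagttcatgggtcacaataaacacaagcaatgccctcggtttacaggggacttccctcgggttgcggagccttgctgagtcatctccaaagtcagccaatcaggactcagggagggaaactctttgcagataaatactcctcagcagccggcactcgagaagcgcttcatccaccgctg

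Isg15 held 3 matches, the first 78 bases before the start, Ifit3 2 matches at 156 and 122 bases before it, Ifitm3 2 matches just inside the transcribed part, and Cxcl10 1 match at 213 bases before the start. The P2ry12 window held none. Of 32851 RefSeq promoter windows of this length, 3.28% held the motif. By gene, 3.80% of 27025 held the motif in any of their windows, which is the measure for the counts that follow. Of 27 genes of the interferon list with an entry, 13 held it, and of the 4 with an entry among the 7 called higher, Ifitm3 did. A match describes the letters alone and does not show that the site is used.

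A few inflammatory genes were lower in members labelled KO. Of 21 genes that reached 50 CPM, none was called higher and 4 were called lower, beside 5.15% and 4.08% of all genes. Over 27 genes at 20 CPM or more, 9 were above 1 and 18 below. The median log2 ratio was -0.26, beside 0.02 over all genes and -0.17 over 29 genes of the list in other microglia. Besides Cxcl10, the genes called lower were Socs3, a feedback inhibitor of cytokine receptors, with 134 CPM and 257 CPM (ratio 0.519, interval 0.400 to 0.670), Nfkbia with 418 CPM and 657 CPM (ratio 0.636, interval 0.548 to 0.737) and Ier3 with 242 CPM and 375 CPM (ratio 0.646, interval 0.530 to 0.785). Socs3, Nfkbia and Ier3 were chosen after their values had been seen. In other microglia Socs3 had a ratio of 0.852, Nfkbia 0.766 and Ier3 0.892. Jun, an immediate early transcription factor that digestion raises, stood at 3050 CPM in members labelled KO and 4116 CPM in members labelled WT (ratio 0.741, interval 0.701 to 0.783), and at 3063 CPM and 3888 CPM in other microglia. Tissue handling of each library cannot be told apart from its label.

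Few genes of the remaining lists were called between members of the libraries. In the chemokine receptor and motility list 9 of 13 genes were above 1, with a median of 0.29, beside 0.09 in other microglia, and none of 12 was called. In the disease-associated list none of 18 genes was 1.5-fold apart, with a median of -0.10, in the lysosomal list none of 21, with -0.08, and in the complement list none of 7, with -0.02. Lineage transcription factors had a median of 0.15 and none of 14 was 1.5-fold apart, with Runx1 at 322 CPM and 239.5 CPM (ratio 1.34, interval 1.10 to 1.64). MHC class I genes had a median of 0.21, with B2m, the invariant light chain, at 2404 CPM and 1855 CPM (ratio 1.30, interval 1.21 to 1.39); H2-Q7, with 26 and 52 counts, was the 1 gene of the list called lower (ratio 0.658, interval 0.395 to 1.07). In the list for the insulin-like growth factor system, for which Igfbpl1 is named, 2 of 9 genes reached 20 CPM and none 50 CPM. The insulin receptor gene Insr stood at 32.6 CPM and 11.8 CPM (ratio 2.77, interval 1.25 to 6.58), and Igfbp4 at 46.6 CPM and 41.3 CPM (ratio 1.13, interval 0.669 to 1.89); the log2 ratio of Igfbp4 turned to between -0.81 and -0.03 under 5 settings.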

How the data were processed

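Single CD45-sorted retinal cells were profiled in 2 libraries with the 10x 3′ kit, per the labels' protocols. The deposited values are raw UMI counts of 31053 genes per barcode, with no normalization. Cell Ranger 3.1 and mm10 are named in the submitters' processing notes.

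Kept barcodes had 500 UMIs or more, 250 genes or more and no more than 15% mitochondrial counts; 24 and 40 failed. Microglia held counts of at least 3 of 7 gate genes (P2ry12, Tmem119, Cx3cr1, Gpr34, Siglech, Fcrls and Olfml3). Members were the pooled top 25% of the 4-gene sum per 10000 UMIs, below the microglial median of Ccl2, Ccl3 and Ccl4, with no Ifit3 or Isg15 count. Doublets were not called or removed.

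Counts were summed over cells per library and given as CPM. Ratios have the exact interval of the split of counts, shares the exact Clopper-Pearson interval, both at 95% and for counting error only, and a count of 0 was floored at 3. A gene is called at 1.5-fold and 50 CPM, and list medians use genes at 20 CPM or more. Shares of cells with a count were also taken after thinning each cell to 1000 UMIs with a fixed seed, leaving out shallower cells (6 members in each library). With 1 library per group, no test was run. Lymphocyte-marked cells (T, NK or B cell markers) and retina-marked cells (rod, bipolar cell, or Müller glia or astrocyte markers) held 2 or more such markers and failed the microglial gate.

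Named genes were Igfbpl1, the genes of the rule, the 12 highest and 12 lowest in members over other microglia, the 10 highest and 10 lowest in the library labelled KO over the library labelled WT, and the most abundant, highest and lowest gene of each of 20 lists. The rankings passed over ribosomal, mitochondrial, predicted and sex-linked genes, pseudogenes, genes of the rule and other classes' markers. The members and lists were chosen with earlier results of these data known. Some genes of the lists are not reported here. Positions came from GENCODE M21 (GRCm38) and promoters from RefSeq (GRCm38.p6). The comparison step was tested on simulated data. Python 3.11.15, numpy 2.4.6, pandas 2.3.3 and scipy 1.17.1 were used. Alternatives covered the filters, the gate, the cuts, depth, the cells with the most UMIs, scaling, cell weights and level minima.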

Additional observations from a re-analysis of the deposited data

Results flagged for a closer look

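Atp2a2, which encodes the calcium pump of the endoplasmic reticulum, went opposite ways in the libraries when members were set over other microglia. The log2 ratio was -0.92 in the library labelled KO and 0.72 in the library labelled WT. It rested on 20 counts (31.1 CPM in members and 58.9 CPM in other microglia) in the library labelled KO and 69 counts (81.4 CPM and 49.5 CPM) in the library labelled WT. It was the 1 gene of 3167 that was at least 1.5-fold higher in members of 1 library and at least 1.5-fold lower in members of the other. The difference between the libraries was not tested, since each group is 1 library.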

How the results depend on the processing

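Of 3802 values recomputed under 19 settings, 3484 stayed within a limit and 315 moved. Another 3, of called genes, changed sign, each when the rule followed thinning to 1000 UMIs. The limit was counting error for shares and single genes, and 1.5 times for counts of genes. For list medians it was a range of the ranked ratios of the list's genes, which is wide for short lists. Among 3714 recomputed log2 ratios and list medians, 164 had the other sign. Of these, 125 lay within the limit around the reported value and 36 beyond it without a call. The MHC class II median in the library labelled WT counted as within it, at -2.61 as reported and 0.12 without cells holding a border macrophage marker. The 3 called genes were Zmym5 for members over other microglia in the library labelled KO (-0.25), and Zbtb8b (-0.59) and Upk1b (-0.27) between the libraries. The cause was not tested.

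Within members, 183 genes were higher in the library labelled KO. The count was 43 at 100 CPM, 690 at 20 CPM, 1292 with no minimum, 55 without the chemokine and interferon conditions, 348 with cells chosen and read on separate UMIs, 513 in the top 10% of the 4-gene sum and 113 in the top 33.3%. In place of 145 lower genes there were 44, 556, 1023, 27, 306 and 398 under these settings up to the top 10%, and 232 in members also without counts of 6 further interferon genes.

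For members over other microglia, 11 genes were higher in both libraries. There were 3 at 100 CPM, 55 at 20 CPM, 241 with no minimum, 25 with equal weight per cell, 1 without the lowest 25% of microglia, 2 after thinning, 19 with separate UMIs, 4 with the median of ratios, 70 in the top 10%, 6 in the top 33.3%, 6 without ribosomal protein and mitochondrial counts and 7 without cells holding a border macrophage marker. In place of 36 lower genes there were 17 at 100 CPM, 84 at 20 CPM, 140 with no minimum, 13 without the lowest 25%, 23 after thinning, 64 in the top 10% and 23 without border macrophage markers.

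The median log2 ratio of the homeostatic list, 0.36 in the library labelled KO, was 0.46 without the chemokine and interferon conditions, 0.15 without the lowest 25%, 0.19 after thinning, 0.25 with the median of ratios and 0.26 without the top 5% of cells by UMIs. In the library labelled WT, 0.29 became 0.18 without the lowest 25% and 0.18 after thinning, 0.23 with separate UMIs, 0.23 with the median of ratios, 0.34 in the top 10%, and 0.25 without ribosomal protein and mitochondrial counts or without border macrophage markers.

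The share of members was 26.2% and 24.3% without the chemokine and interferon conditions, 4.63% and 4.18% in the top 10%, 13.4% and 12.8% in the top 33.3%, and 12.4% in the library labelled KO with separate UMIs. With the cuts taken inside each library it was 8.81% and 10.5%, within the limit but in the other order. Leaving out the lowest 25%, and members with further interferon counts, were settings chosen after seeing the data. No paired analysis was possible because each group is 1 library. No library could be left out for the same reason.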

Other observations

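Genes of respiration were slightly lower in members than in all other microglia, but not than in the marker-high microglia outside the members. Of 20 oxidative phosphorylation genes, 15 were below 1 in both libraries and 1 above, with median log2 ratios of members over other microglia of -0.22 in the library labelled KO and -0.13 in the library labelled WT, and none was called. Cox8a, a subunit of cytochrome c oxidase, had ratios of 0.737 and 0.788. Of 14 glycolysis and hypoxia genes, 8 were below 1 in both and none was called, with medians of 0.02 and 0.09 against the marker-high microglia outside the members. Bnip3, a mitophagy receptor that hypoxia induces, had ratios of 1.85 and 1.59, but its log2 ratio was -0.03 in the top 10% of the 4-gene sum in the library labelled KO and -0.22 in the library labelled WT when the rule followed thinning. MHC class I genes had medians of -0.22 and -0.34, with 8 of 10 below 1 in both. Of 4 cell cycle genes at 20 CPM or more, 3 were below 1 in both, with Stmn1, a tubulin binding protein gene, at ratios of 0.302 and 0.175. In the lipid list, 6 of 13 genes were below 1 in both and 3 above, and its medians of -0.53 and -0.12 turned positive under some settings (up to 0.14 and 0.24).

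Between the libraries, none of the 19 oxidative phosphorylation genes and none of the 12 glycolysis and hypoxia genes compared in members was called, with medians of -0.02 and -0.29. In the lipid list, 1 of 6 was called lower in members labelled KO (Soat1, which esterifies cholesterol, ratio 0.636), and the list median was -0.33. Heat shock genes had a median of 0.13 (-0.12 at 100 CPM), with Hsph1 called higher and Hspd1 called lower (ratio 0.635). In the list of phagocytic receptors and their signalling, Plcg2, a phospholipase, was the 1 of 17 called, with a ratio of 1.64.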
